A study of Homo sapiens with 6 samples.

Results

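Interferon-stimulated genes and RNA sensors that could react to an introduced duplex RNA were examined in PC3 cells transfected with siRNA. The set holds 41 genes chosen by symbol from the families induced by interferon, and all 41 were found among the 24462 gene symbols of the count tables. PC3 is an established human prostate cancer line that was isolated from a metastasis in bone, and the study asked what CITED2, a transcriptional co-regulator, does in it. The 6 count tables gave 3 cultures transfected with a non-targeting siRNA (si-Control) and 3 transfected with siRNA against CITED2 (si-CITED2), all at 80 nM for 72 h. Every culture was transfected with siRNA, so an effect shared by both siRNAs does not show in the comparison, and untransfected cells were not analysed here. All libraries come from a single line, and an effect of CITED2 and an effect of the siRNA sequence itself cannot be told apart.

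Interferons are secreted proteins that bind paired receptor chains at the cell surface. The receptors carry Janus kinases, which phosphorylate STAT2, and STAT2 joins IRF9 in a complex that enters the nucleus and binds interferon-stimulated response elements in the promoters of its target genes. The products of these genes bind or cut viral RNA, block virus entry, attach the ubiquitin-like protein ISG15 to other proteins, or sense RNA and so add to further interferon production. Duplex RNA placed in a cell can be sensed by RIG-I, MDA5, PKR or TLR3, which is why these genes are of interest in siRNA experiments.

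The libraries held 19508925 to 28936374 counts, and 3 counts, taken as the smallest detectable number, corresponded to 0.104 to 0.154 CPM, which are counts scaled by the total of each library. The labels were checked first with the targeted gene. CITED2 mRNA was at 858.6, 892 and 773 normalized counts in si-Control replicates 1, 2 and 3, and at 1084.3, 921.1 and 983.9 in si-CITED2 replicates 1, 2 and 3. It was thus higher, not lower, in the libraries labelled si-CITED2 (log2 fold change 0.24, SE 0.07, edgeR adjusted p = 0.0363), and every direction given here is that of the labels. The study checked the knockdown by an immunoblot of the CITED2 protein, a measure that counts of mRNA do not show. The call was lost without si-Control replicate 1 (adjusted p = 0.0536), si-Control replicate 3 (0.141), si-CITED2 replicate 1 (0.154) or si-CITED2 replicate 3 (0.0846). The line was checked with its markers. KRT8, KRT18, KRT19 and EPCAM were abundant, whereas KLK3, the gene of prostate-specific antigen, was near 0 (0 to 2.2 normalized counts). KRT8 and KRT18 were higher in si-CITED2 (log2 fold changes 0.24 and 0.18) and EPCAM was lower (-0.33), and the part of these shifts in the other results was not tested. PTPRC, the pan-leukocyte marker, lay between 0 and 1.8, and 7 of 8 leukocyte markers failed the filter on low counts, the exception being CD68. The summed level of 4 fibroblast and endothelial markers was 0.789 to 0.933 CPM in si-Control and 0.41 to 0.83 CPM in si-CITED2.

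The promoters of the set were searched for the letters of the element through which interferon acts, and binding to them was not measured. The interferon-stimulated response element was searched as GAAA, any 2 bases and GAAA again, on both strands, with overlapping matches kept, in RefSeq windows of GRCh38.p14 that run from 250 bases before to 50 bases after an annotated start. Such windows were found for 32 of the 41 genes and not for IFIT2, MX2, OAS2, OASL, IFITM2, DHX58, IRF7, USP18 and TRIM22. The letters were present in 23 of the 32 genes (71.9%), against 4.38% of all 27305 genes with a window and 3.57% of all 35116 windows. The set was chosen from genes known for this element, so that share describes the set. The stretches around the matches follow for 5 genes that were lower in si-CITED2 and for 3 that were not called. They read 5′ to 3′ along the strand of the gene, with the matches in capitals. A match on the opposite strand appears as the reverse complement.
IFIT1: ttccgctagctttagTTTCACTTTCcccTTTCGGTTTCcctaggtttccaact
IFIT3: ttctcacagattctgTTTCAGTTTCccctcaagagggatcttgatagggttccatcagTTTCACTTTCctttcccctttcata
IFIT5: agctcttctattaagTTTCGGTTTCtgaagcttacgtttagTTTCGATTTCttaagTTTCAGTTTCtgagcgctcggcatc
ISG15: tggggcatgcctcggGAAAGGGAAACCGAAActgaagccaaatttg
ISG20: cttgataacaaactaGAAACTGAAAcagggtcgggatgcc
HERC5: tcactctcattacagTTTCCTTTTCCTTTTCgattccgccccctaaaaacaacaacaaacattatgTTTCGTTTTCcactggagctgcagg
PARP9: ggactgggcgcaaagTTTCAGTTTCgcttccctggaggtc
EIF2AK2: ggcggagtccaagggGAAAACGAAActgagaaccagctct
The 3 IFIT stretches lie on the plus strand of chromosome 10, at chr10:89392492-89392544 for IFIT1, chr10:89332420-89332502 for IFIT3 and chr10:89414508-89414588 for IFIT5. ISG15 is from chr1:1013369-1013414, ISG20 from chr15:88638932-88638971 and HERC5 from chr4:88456979-88457069, all on the plus strand. PARP9 is from chr3:122564317-122564356 and EIF2AK2 from chr2:37156962-37157001, both on the minus strand. The PARP9 stretch is also the promoter match of DTX3L, which is read from the other strand. IFIT3 has a further window upstream that also holds the letters. The 7 lower genes that have a window (IFIT1, IFIT3, ISG15, ISG20, MX1, OAS3 and HERC5) all held the letters, and so did 14 of the 22 tested but uncalled genes with a window. The 9 genes with a window and no match were OAS1, IFI35, DDX58, STAT2, IRF1, IRF9, HERC6, XAF1 and CMPK2.

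Of the 41 genes, 37 passed the filter on low counts and were tested. The libraries labelled si-CITED2 held lower levels of 12 of them and higher levels of 0 at an adjusted p under 0.05 (edgeR quasi-likelihood test, adjusted over all 16314 genes tested). The 12 were IFIT1, IFIT2, IFIT3, ISG15, ISG20, MX1, OAS3, OASL, IFITM2, DHX58, USP18 and HERC5, the largest fall being 1.89-fold. They made up 32.4% of the tested genes of the set and 29.3% of the whole set, whereas 8.09% of all genes tested were called lower and 9.36% were called higher. The 8 calls of IFIT1, IFIT2, IFIT3, ISG15, ISG20, OASL, DHX58 and HERC5 were kept in all 12 alternative fits. With DESeq2, 10 were lower, all of them among the 12, and 0 were higher. At an unadjusted p under 0.05, edgeR gave 13 lower and 2 higher (IRF1 and SAMD9), and DESeq2 gave 1 higher. The log2 fold change was below 0 in 26 and above 0 in 11, that is below 0 in 70.3% against 50.3% of all genes tested, and its median was -0.191 against -0.001. With an added requirement of a fold change over 2, at an unadjusted p under 0.05, 0 genes of the set remained in either direction, while 0.319% of all genes were lower and 1.59% were higher by that rule. In bulk RNA, fewer cells that express a gene and less RNA per cell cannot be told apart.

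**Figure D1:**
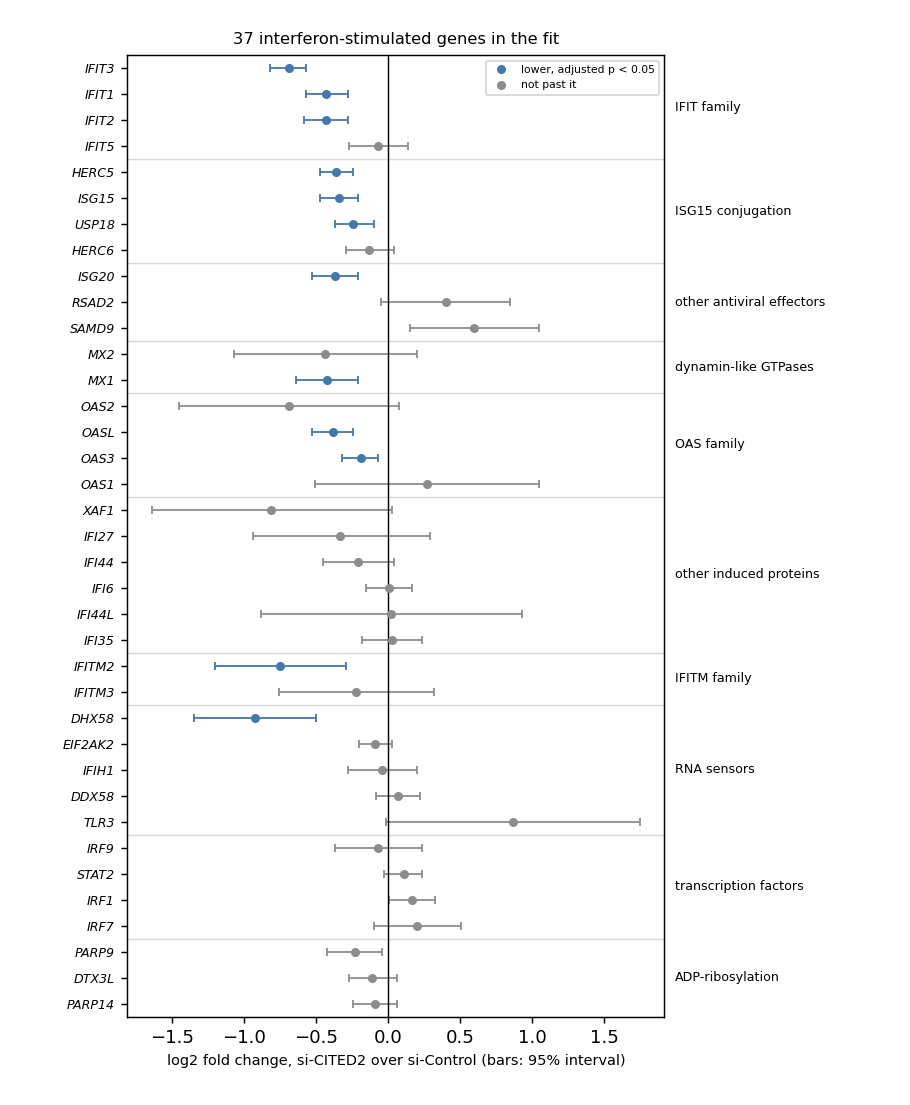
Log2 fold change of the 37 tested interferon-stimulated genes, si-CITED2 over si-Control (points), with the 95% interval of the edgeR fit (bars), grouped by role. The 12 genes called lower (blue) belong to 7 of the 10 roles, and none is a transcription factor, an ADP-ribosylation gene or one of the other induced proteins.

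The 3 values of si-CITED2 all lay below the 3 of si-Control for 18 genes of the set and all above them for 3, while 16.1% and 16.4% of all genes tested did so. The 18 included all 12 called genes and 6 uncalled ones, MX2, IFI27, HERC6, PARP9, DTX3L and XAF1. The 3 higher genes were IRF1, SAMD9 and TLR3, none of which was called. Summed over the set, the level was 903.2, 926.6 and 951.1 CPM in si-Control against 791.7, 787.4 and 785.1 CPM in si-CITED2. The groups did not overlap, and the si-CITED2 mean (788.1 ± 3.36 CPM, SD, n = 3) was 85% of the si-Control mean (927 ± 24 CPM, SD, n = 3). Without EIF2AK2, the most counted gene of the set, the sum was 760.7 to 798.6 CPM in si-Control and 642.5 to 655.3 CPM in si-CITED2.

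**Figure D2:**
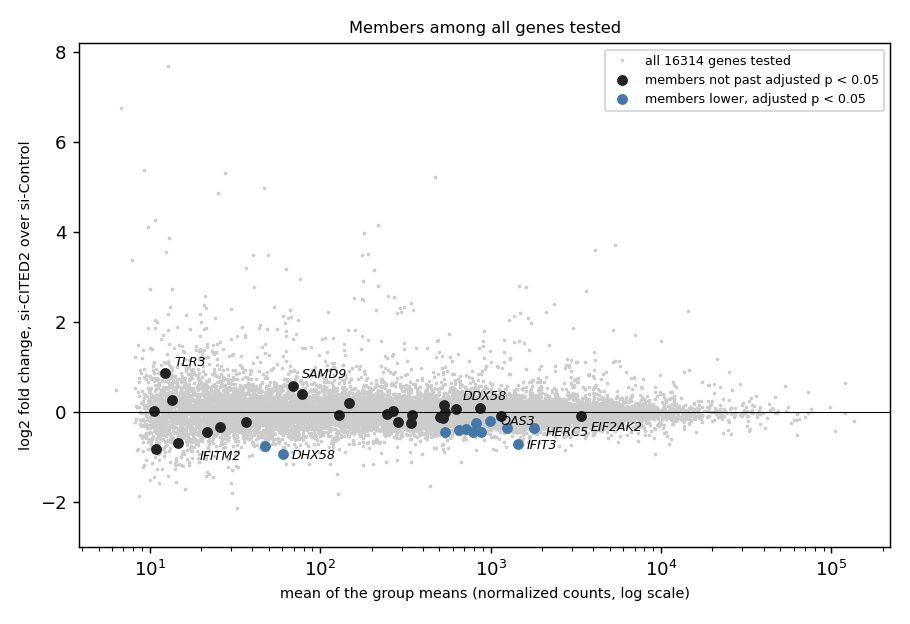
Log2 fold change (si-CITED2 over si-Control) against the mean of the group means in normalized counts (log axis) for all 16314 genes tested (grey), with the interferon-stimulated genes marked as lower (blue) or not called (black). The 12 lower genes lie in the lower part of the cloud, down to -0.92 for DHX58.

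The IFIT proteins bind foreign RNA and hinder its translation, and 3 of the 4 family members fell. IFIT3, which stabilises IFIT1, was at 1774.9, 1701.2 and 1888.5 normalized counts in si-Control replicates 1, 2 and 3 and at 1106.2, 1115 and 1089 in si-CITED2 replicates 1, 2 and 3. Every si-CITED2 value lay well under every si-Control value, and the fall of 1.62-fold had the lowest adjusted p of the set (log2 fold change -0.69, SE 0.06, adjusted p = 2.16e-07). IFIT1 went from 1031, 966.9 and 1010.7 normalized counts to 699.4, 791.1 and 745 (log2 fold change -0.43, SE 0.07, adjusted p = 0.000221). IFIT2, which is reported to favour cell death, went from 875.4, 934.7 and 894.2 to 618.1, 658.3 and 729.7 (log2 fold change -0.43, SE 0.07, adjusted p = 0.000402). Neither gene overlapped between the groups. IFIT5 was the exception of the family. It was at 316.4 to 378.6 in si-Control and 327.9 to 356.4 in si-CITED2, so that the groups overlapped (log2 fold change -0.07, 95% interval -0.27 to 0.14), even though its promoter shown above holds 3 matches. IFIT2 and IRF9 each share exonic bases with another annotated gene on the same strand, and how such reads were counted is not given in the sources used here.

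ISG15 is a ubiquitin-like protein that is attached to newly made proteins. HERC5 is its main human ligase, and USP18 removes it and also restrains the type I interferon receptor. All 3 fell. ISG15 was at 1446.9, 1388.8 and 1364.9 normalized counts in si-Control but at 1071, 1069.2 and 1174.5 in si-CITED2 (log2 fold change -0.34, SE 0.06, adjusted p = 0.000659). HERC5 was at 2045.1, 2003.9 and 2037.9 in si-Control against 1506.9, 1640.6 and 1606.2 in si-CITED2 (log2 fold change -0.36, SE 0.05, adjusted p = 0.000171). USP18 was at 904.8, 908.9 and 857.8 in si-Control against 791.7, 725.2 and 754.9 in si-CITED2 (log2 fold change -0.24, SE 0.06, adjusted p = 0.0175). The groups were apart for each of the 3, but the USP18 call was lost without si-Control replicate 2 (adjusted p = 0.0738), si-CITED2 replicate 2 (0.0925) or si-CITED2 replicate 3 (0.066). HERC6, the closest relative of HERC5, was at 512.8 to 566 in si-Control and at 494.9 to 510 in si-CITED2 and was not called (log2 fold change -0.13, 95% interval -0.29 to 0.04). ISG15 shares exonic bases with a gene on the other strand, and since the strand setting of the counting is not given, reads of such pairs cannot be told apart. The same limit holds for MX1, EIF2AK2, IRF1, OAS1, IFITM3, XAF1 and the pair PARP9 and DTX3L.

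The OAS enzymes make oligoadenylates that switch on the nuclease RNase L. OAS3, the largest of them, fell slightly, from 1025.6, 1043.4 and 1083.7 normalized counts to 927.7, 915.4 and 917 (log2 fold change -0.19, SE 0.06, adjusted p = 0.0339). The 3 values of each group were tight and apart, yet the call was lost with DESeq2 (0.0536), with the replicate number as a block (0.0619) and without si-Control replicate 2 (0.0851), si-Control replicate 3 (0.101), si-CITED2 replicate 1 (0.0542), si-CITED2 replicate 2 (0.101) or si-CITED2 replicate 3 (0.109). OASL, which has no synthetase activity and enhances RIG-I signalling, fell from 728.8, 747.1 and 734.2 to 546.4, 590.5 and 555.5 (log2 fold change -0.38, SE 0.07, adjusted p = 0.000743). OAS1 and OAS2 were scarce in these cells, with 10 to 17 and 8 to 26 raw counts per library. Their log2 fold changes of 0.27 (95% interval -0.51 to 1.05) and -0.69 (95% interval -1.45 to 0.08) were not called, and at this depth the intervals are too wide to place either gene beside OAS3 or OASL.

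Among the genes whose products act on viruses directly, MX1, ISG20 and IFITM2 fell. MX1, a dynamin-like GTPase that traps viral nucleocapsids, was at 561.7, 623.9 and 667.1 normalized counts in si-Control against 539.1, 405.1 and 439.3 in si-CITED2 (log2 fold change -0.42, SE 0.10, adjusted p = 0.00694). Si-CITED2 replicate 1 was close to the lowest si-Control value, and without si-CITED2 replicate 2 the adjusted p was 0.0522. ISG20, an exonuclease, was at 792.8, 751.1 and 874.2 in si-Control against 592.6, 647.8 and 624.5 in si-CITED2 (log2 fold change -0.37, SE 0.07, adjusted p = 0.00198). IFITM2, a membrane protein that restricts virus entry, was much less abundant, at 56, 56.4 and 64.7 in si-Control against 37.6, 29.6 and 38.3 in si-CITED2 (log2 fold change -0.75, SE 0.22, adjusted p = 0.0247). Its call was lost with DESeq2 (0.0563) and without si-Control replicate 2 (0.0553), si-Control replicate 3 (0.0762) or si-CITED2 replicate 2 (0.112). IFITM2 is nearly identical to IFITM1 and IFITM3 over part of its length, so the division of reads among them is uncertain. IFITM3 was at 29.8 to 47.1 in si-Control and 29.6 to 38.3 in si-CITED2 (log2 fold change -0.22, not called), and IFITM1 was counted 1 to 9 times per library and failed the filter.

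**Figure D3:**
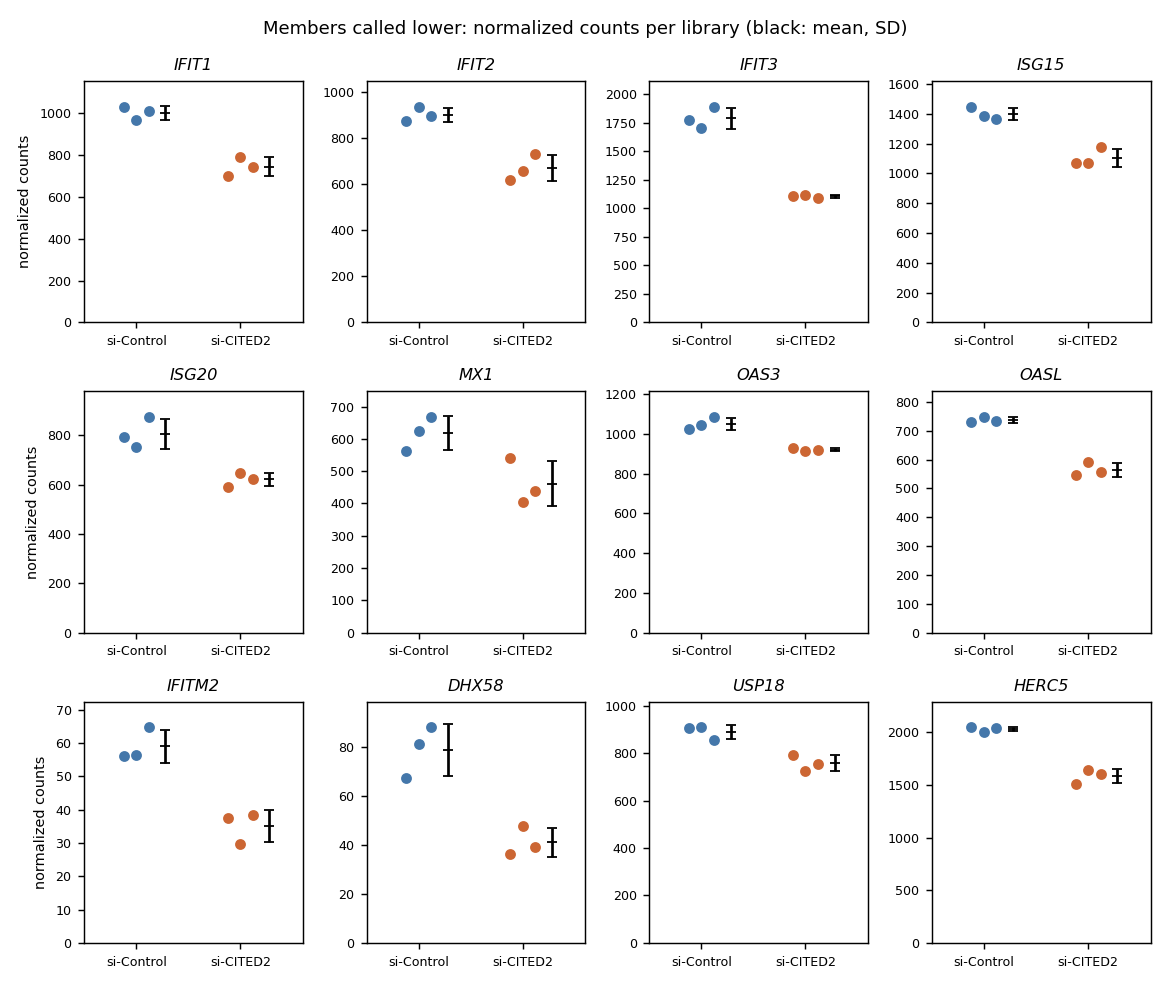
Normalized counts of the 12 interferon-stimulated genes called lower, with 1 point per library (3 si-Control, blue, and 3 si-CITED2, orange) and the mean and SD beside them in black; each axis starts at 0. In every panel the 3 si-CITED2 points lie below the 3 si-Control points, and relative to their level the groups come closest for MX1, at 561.7 and 539.1.

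The other antiviral genes gave no call. RSAD2, the gene of viperin, was at 63.5 to 72.9 normalized counts in si-Control against 123.9, 70.7 and 74.5 in si-CITED2, with si-CITED2 replicate 1 far above the rest (log2 fold change 0.40, SE 0.21). SAMD9, a cytoplasmic restriction factor for poxviruses, was at 73.8, 41.1 and 50.6 in si-Control against 80.1, 89.8 and 80 in si-CITED2 (log2 fold change 0.60, SE 0.21, adjusted p = 0.0635). It was called higher without si-Control replicate 1 (log2 fold change 0.88, adjusted p = 0.00732) and with no filter on low counts (adjusted p = 0.0406), which makes it the only gene of the set that was called higher in any of the fits. MX2, a relative of MX1 that inhibits HIV, was at 23.1 to 26.6 in si-Control and at 14.2 to 21 in si-CITED2 (log2 fold change -0.44, SE 0.30). The genes BST2, TRIM22 and CMPK2 failed the filter, with 0 to 5, 0 to 7 and 0 to 7 raw counts per library. BST2 encodes tetherin, which holds budding viruses at the cell surface, and it is a typical interferon target, but these counts do not show a level above a few reads.

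Of the 5 sensors of RNA only DHX58 was called. DHX58 encodes LGP2, a regulator of RIG-I and MDA5 signalling, and it had the largest fall of the set. Its level was 67.5, 81.3 and 88.2 normalized counts in si-Control against 36.4, 47.8 and 39.4 in si-CITED2, a 1.89-fold fall with no overlap (log2 fold change -0.92, SE 0.20, adjusted p = 0.00368). The sensors it works with did not pass the test. DDX58, the gene of RIG-I, was at 586.6 to 650.7 in si-Control and 632.6 to 642.1 in si-CITED2 (log2 fold change 0.07, 95% interval -0.08 to 0.22). IFIH1, the gene of MDA5, was at 231.8 to 278.2 and 223.4 to 263.7 (log2 fold change -0.04, 95% interval -0.28 to 0.20). EIF2AK2, the gene of PKR, was at 3371.1 to 3598.8 and 3134.9 to 3536 (log2 fold change -0.09, 95% interval -0.20 to 0.03). For these 3 the groups overlapped. The intervals of IFIH1 and EIF2AK2 include a fall as large as the one called for OAS3 (log2 fold change -0.19), and that of DDX58 does not. TLR3, the endosomal sensor of duplex RNA, was counted 5 to 19 times per library, and its log2 fold change of 0.87 had an interval of -0.01 to 1.75.

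The transcription factors that drive the response, STAT2, IRF9, IRF1 and IRF7, were not called in either direction. STAT2 was at 806.1 to 883.2 normalized counts in si-Control and 873.2 to 924 in si-CITED2 (log2 fold change 0.11, 95% interval -0.03 to 0.24). IRF1 was at 471.9, 504 and 533 in si-Control against 568.3, 578.1 and 550 in si-CITED2, apart but not called (log2 fold change 0.17, adjusted p = 0.146). IRF7, the master factor of type I interferon production, and IRF9 had log2 fold changes of 0.20 (SE 0.14) and -0.07 (SE 0.14). The ADP-ribosylation genes PARP9, DTX3L and PARP14 had log2 fold changes of -0.23, -0.11 and -0.09. PARP9 and its partner DTX3L share the promoter stretch shown above. Both lay lower without overlap, PARP9 at 349.3 to 382.4 in si-Control and 297.5 to 331.6 in si-CITED2, and DTX3L at 506.6 to 542.4 and 455.4 to 504, but their adjusted p values were 0.101 and 0.41. The remaining induced genes spanned a wide range. IFI6, a mitochondrial protein that counters apoptosis, was level at 541.8 ± 20.9 and 544.8 ± 31.3 normalized counts (SD, n = 3), with a log2 fold change of 0.01 and an interval of -0.15 to 0.17. IFI35 and IFI44 had log2 fold changes of 0.03 and -0.21. IFI27, IFI44L and XAF1, all at or under 36 raw counts in every library, had log2 fold changes of -0.33, 0.02 and -0.81 with SEs of 0.29, 0.43 and 0.39.

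Levels were compared between genes as CPM per kilobase of the longest coding GENCODE 29 transcript, in si-Control. ISG15 led with 75.9, followed by IFIT3 (30.6), IFI6 (27.5), HERC5 (24.6), ISG20 (18.5), USP18 (17.8), EIF2AK2 (14.9), STAT2 (11) and IFIT2 (10.4). The lowest was TRIM22 with 0.0494. Of these leading genes, ISG15, IFIT3, HERC5, ISG20, USP18 and IFIT2 were called lower, and IFI6, EIF2AK2 and STAT2 were not. The 7 tested genes with a mean under 30 normalized counts in both groups (MX2, OAS1, OAS2, IFI27, IFI44L, XAF1 and TLR3) had SEs from 0.29 to 0.43, and 0 of them was called. For those 7 the depth limits what can be seen.

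The rest of the pathway was read from 4 lists of 97 genes in all, of which 73 were tested, 5 were lower and 11 were higher. Over all genes tested, 8.09% were called lower and 9.36% higher. In the list of receptors, kinases and regulators, 6 of 13 genes rose (46.2%, where 9.36% of all genes were called higher). IFNAR2, the signalling chain of the type I interferon receptor, rose from 1200.7, 1210.9 and 1121.3 normalized counts to 1685.4, 1737.1 and 1656.6 (log2 fold change 0.52, SE 0.06, adjusted p = 4.8e-06). Its partner IFNAR1 rose from 1913.5, 2057.8 and 1995.6 to 2479.5, 2357.2 and 2381.8 (log2 fold change 0.27, adjusted p = 0.00134). IFNGR2, a chain of the interferon gamma receptor, rose from 1351.8, 1497.5 and 1376.6 to 2123.8, 2021.8 and 2183.5 (log2 fold change 0.58, adjusted p = 1.91e-06). JAK1, the kinase that these receptors share, rose from 3372.9, 3353.2 and 3529.9 to 4751.4, 4518.5 and 4529.2 (log2 fold change 0.43, adjusted p = 7.6e-06), and IL10RB, a chain of the interferon lambda receptor, had a log2 fold change of 0.38 (adjusted p = 0.00464). These 5 genes were higher in the same libraries in which the 12 interferon-stimulated genes were lower, and none of the 5 overlapped between the groups. SOCS3, an inhibitor of cytokine signalling, had a log2 fold change of 0.27 (adjusted p = 0.0479), and this call was lost in 9 of 12 alternative fits, among them those without si-Control replicate 2 (0.0887), si-Control replicate 3 (0.168), si-CITED2 replicate 1 (0.0599), si-CITED2 replicate 2 (0.142) or si-CITED2 replicate 3 (0.143). IFNGR1, IFNLR1, JAK2, TYK2, SOCS1 and PIAS1 were not called, with log2 fold changes from -0.10 to 0.38.

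**Figure D4:**
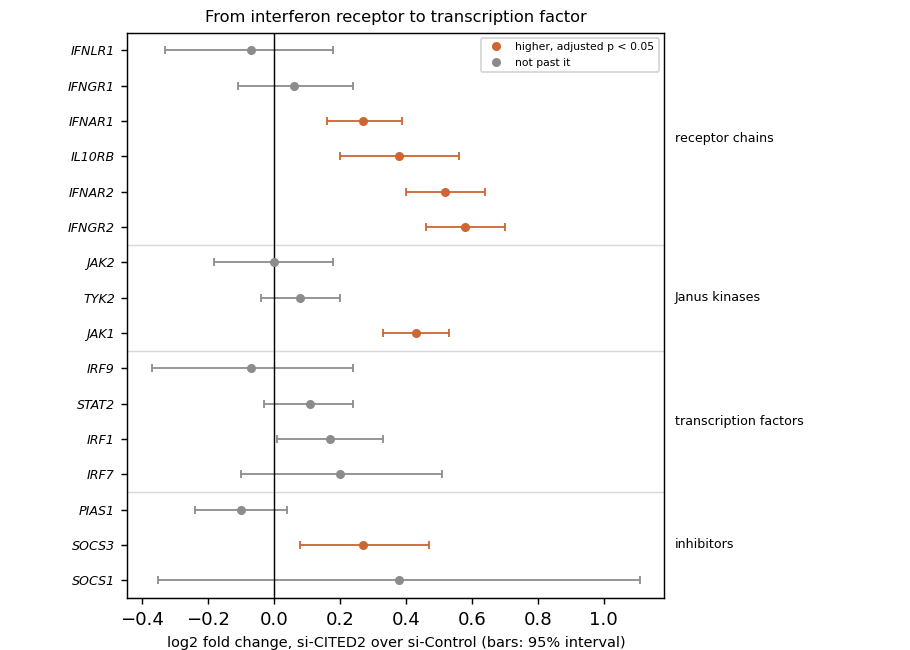
Log2 fold change, si-CITED2 over si-Control, with the 95% interval of the edgeR fit, for the interferon receptor chains, Janus kinases, transcription factors and inhibitors. IFNAR1, IFNAR2, IFNGR2, IL10RB, JAK1 and SOCS3 lie above 0 with an adjusted p under 0.05 (orange), and the other genes shown were not called (grey).

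The ligands were nearly absent. Of 21 interferon genes, 11 had no count in any library, among them IFNG, which allows up to 0.104 to 0.154 CPM per library. IFNB1, an early product of RNA sensing, was counted 1 to 2 times in si-Control libraries and 2 to 5 times in si-CITED2 libraries. IFNA1, IFNA8, IFNA13 and IFNA14 had at most 5 counts in any library, and reads of the IFNA genes are hard to divide among near copies. IFNE was counted 5 to 16 times. The lambda interferons IFNL1, IFNL2 and IFNL3 had 23 to 29, 4 to 16 and 7 to 12 raw counts in si-Control and 11 to 21, 3 to 8 and 1 to 3 in si-CITED2, and IFNL2 and IFNL3 are near copies too. IFNK, an interferon of epithelia, was the only ligand called, 1 of 3 tested, where 9.36% of all genes were called higher. It was at 25.8, 12.9 and 9.4 normalized counts in si-Control against 32.8, 39.2 and 29.6 in si-CITED2 (log2 fold change 1.05, SE 0.34, adjusted p = 0.0443). Its call was lost with DESeq2 (0.068) and without si-Control replicate 2 (0.165), si-Control replicate 3 (0.143), si-CITED2 replicate 1 (0.0871), si-CITED2 replicate 2 (0.174) or si-CITED2 replicate 3 (0.0697).

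Of 20 adapters and kinases between sensor and interferon gene, 17 were tested, 2 rose and 0 fell. The 2 are 11.8% of those tested, near the 9.36% of all genes that were called higher. TICAM1, the adapter of TLR3, had a log2 fold change of 0.29 (adjusted p = 0.0159), and TRAF3, which links adapters to the kinase TBK1, a log2 fold change of 0.22 (adjusted p = 0.0156). The TICAM1 call was lost without si-Control replicate 1 (0.054), si-Control replicate 2 (0.0776), si-CITED2 replicate 1 (0.0793) or si-CITED2 replicate 2 (0.0521), and that of TRAF3 without si-Control replicate 3 (0.0518), si-CITED2 replicate 1 (0.0567) or si-CITED2 replicate 2 (0.0953). MAVS, the adapter of RIG-I and MDA5, and IRF3 were not called (log2 fold changes -0.11 and -0.12). Among 44 further interferon-stimulated genes, 41 were tested, 4 fell and 2 rose, with a median log2 fold change of -0.033. The 4 that fell are 9.76% of those tested, near the 8.09% of all genes called lower, and the 2 that rose are 4.88%, where 9.36% of all genes were called higher. The 4 were LY6E (-0.25, adjusted p = 0.0177), APOL6 (-0.34, adjusted p = 0.0279), PNPT1 (-0.15, adjusted p = 0.0424) and ZNFX1 (-0.16, adjusted p = 0.0487). None of these 4 calls held under every left-out library. Without si-CITED2 replicate 3 the adjusted p was 0.122 for LY6E, 0.0632 for APOL6, 0.139 for PNPT1 and 0.224 for ZNFX1, and without si-CITED2 replicate 2 it was 0.0689, 0.128, 0.0669 and 0.153. Without si-Control replicate 2 the values were 0.0536, 0.098, 0.137 and 0.174. The calls of APOL6 (0.115), PNPT1 (0.0587) and ZNFX1 (0.142) were also lost without si-Control replicate 3, those of LY6E (0.0647) and PNPT1 (0.0625) without si-Control replicate 1, and that of PNPT1 without si-CITED2 replicate 1 (0.107). SLFN5 rose from 287.1, 262.5 and 287.1 normalized counts to 478.4, 451 and 456.9 (log2 fold change 0.73, SE 0.09, adjusted p = 1.54e-05). SP100, a component of nuclear bodies, had a log2 fold change of 0.24 (adjusted p = 0.01, and 0.0639 without si-Control replicate 2).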

How the data were processed

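RNA of 6 PC3 cultures was extracted with Trizol and made into libraries with a SMARTer mRNA-seq kit. The deposited files give raw counts per gene symbol and were not normalized by the authors. The submitters' processing notes name TopHat, edgeR and hg19. Tool versions, the counting program, the annotation and the strand setting are not given in the sources used here. The tables hold 25737 rows for 24462 symbols, and the row with most counts was kept for the 286 symbols with several. None of the genes of the set was among these.

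Counts were tested in R 4.3.3 with edgeR 4.0.16 (filterByExpr, with a minimum count of 10, TMM, quasi-likelihood test, group as the only term), which tested 16314 genes with a common biological coefficient of variation of 0.061. P-values were two-sided and adjusted by the Benjamini-Hochberg method over all genes tested, and calls were made under 0.05. Normalized counts were scaled by TMM to the mean effective library size. Groups and replicate numbers came from the sample titles. Replicate libraries all differed beyond counting noise (chi-square over its degrees of freedom 2.89 or more). The labels do not state that the cultures were independent, whereas a figure legend of the study describes 3 independent experiments. P-values weigh the difference between the groups against the spread between these libraries, which edgeR estimates partly from all genes together. Intervals and the floor of 3 counts cover the spread and counting error only. The alternatives were a replicate block, each library left out in turn, DESeq2 1.42.0, library size without TMM, other filters, summed rows and a rule on fold change. All 41 genes are named, pathway genes when called (at most 8 per list), and ligands with any count. The 41 genes and the lists were chosen with earlier results of these data known, and the scripts were tested on simulated data. Promoter sequences are from RefSeq (GRCh38.p14) and transcript lengths from GENCODE 29, whereas the counts were made on hg19. Some genes of the pathway and marker lists are not reported here.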

Additional observations from a re-analysis of the deposited data

How the results depend on the processing

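Of the 12 calls, 8 passed the threshold in every alternative fit, and 0 results of any kind changed direction past it. The number of lower genes in the set was 8 to 12 with each library left out in turn and 10 with DESeq2. The number of higher genes was 0 to 1 with a library left out and 1 with no filter on low counts. By the rule of an unadjusted p under 0.05 with a fold change over 2, there were 52 lower and 259 higher genes in all, 0 lower in the set, and 0 lower and 1 higher in the pathway lists, since the falls of the set were under 2-fold. With a library left out, the pathway lists held 1 to 4 lower and 7 to 10 higher genes, the median log2 fold change of the set was -0.2 to -0.131, and all genes tested gave 881 to 1328 lower and 1135 to 1519 higher calls. The log2 fold change of CITED2 was 0.173 to 0.291 with a library left out, past the threshold in 2 of 6 fits, and 0.221 without TMM (adjusted p = 0.0518). Samples with the same replicate number did not visibly deviate together (r = -0.038, 0.034 and -0.011). This cannot show whether cultures with the same number were handled together, which the labels do not state. With a replicate block, the set had 11 lower genes, the pathway lists 3 lower and 10 higher, and all genes 1154 lower and 1405 higher. Depth limited what could be said of genes under 30 normalized counts.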

Other observations

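Ratios of related genes within a library need no scaling between libraries, and 5 pairs chosen after their values were seen are given here. Each separated the groups completely, with an exact two-sided permutation p of 0.1, the smallest that 3 samples against 3 allow. Each pair sets a gene called lower in these same counts over an uncalled relative. The separation thus follows from the choice, and this p cannot serve as a test. IFIT3 over IFIT5 was 4.69, 5.38 and 5.11 in si-Control against 3.37, 3.13 and 3.31 in si-CITED2. IFIT1 over IFIT5 had a mean of 2.84 ± 0.19 in si-Control and 2.21 ± 0.068 in si-CITED2 (SD, n = 3). These pairs compare neighbouring genes of chromosome 10. DHX58 over DDX58, that is LGP2 over RIG-I, was 0.115, 0.136 and 0.136 in si-Control against 0.0576, 0.0744 and 0.0614 in si-CITED2. DHX58 over IFIH1 went from 0.243, 0.333 and 0.381 to 0.163, 0.181 and 0.16. Both ratios fell by about the fold of DHX58 itself, with log2 differences of -1 and -0.9. HERC5 over HERC6 went from 3.99, 3.54 and 3.65 to 2.95, 3.31 and 3.24. A ratio shows unequal change and not which of its genes changed.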
